A study of Mus musculus with 4 samples.

Results

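The SR proteins, the Tra2 proteins and the heterogeneous nuclear ribonucleoproteins (hnRNPs) are the RNA-binding proteins that steer the choice of splice sites. Their genes were read here as every row with 1 gene symbol in the platform annotation that began with Srsf and a number, with Hnrnp and a letter, or was Tra2a or Tra2b, pseudogenes left out. This gave 28 genes of the 30142 tested: 10 SR genes, 2 Tra2 genes and 16 hnRNP genes, each with 1 row. The rule reads names and not measured values, though it was chosen with earlier results of these data known. Srsf7, another SR gene, was not analysed here, so the SR genes below are not the whole family.

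The arrays held RNA from cultured outgrowths of mouse blastocysts, in which trophoblast spreads around the cells derived from the inner cell mass. Blastocysts were flushed at 3.5 days post coitum from crosses of Tip110+/- parents, grown for 4 to 6 days without treatment in an ES cell medium containing knockout serum replacer (KOSR), and typed as wild-type or Tip110-/-. Each genotype had 2 arrays: replicate 1 pooled 3 outgrowths, replicate 2 held 1, and an SD would rest on 2 values. The labels call these biological replicates and do not describe the mutant allele, the strain or which embryos were littermates.

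Tip110, encoded by Sart3, helps the U4 and U6 small nuclear RNAs to pair again between rounds of splicing and so acts on the core machinery. SR proteins carry RNA recognition motifs and a tail rich in arginine and serine; they mostly bind exonic enhancers and recruit the core machinery to nearby splice sites. HnRNPs coat nascent transcripts and often silence splice sites, and the balance of the 2 classes sets many alternative exons. Several of these proteins limit their own amount through exons that lead the transcript to decay, which a summary over a whole gene does not show. Signal below is the deposited log2 value, where 1 unit is a doubling. Signals of different genes come from different probes, so each gene is compared with itself between arrays.

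None of the 28 genes passed the adjusted threshold of 0.05 between genotypes (limma, adjusted p from 0.334 to 0.996), and neither did any of all genes (0%). As measured, 22 of the 28, or 78.6%, had a lower mean in the Tip110-/- outgrowths, beside 30.4% of all genes. The other 6 had a higher mean. The median difference, Tip110-/- minus wild-type, was -0.49, beside 0.15 over all genes. At an unadjusted p under 0.05 in limma, Hnrnpa3 and Hnrnpab were lower and no member was higher. That is 2 of 28 genes or 7.14% lower, beside 3.67% of all genes lower and 8.99% higher. In 15 of the 28, or 53.6%, both Tip110-/- arrays lay below both wild-type arrays, beside 12.9% of all genes, and in 0 both lay above, beside 39.9% of all genes.

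Most of the table is dim, and its middle was higher in Tip110-/-: the median over all genes ran from 4.21 to 4.22 in wild-type arrays and from 4.32 to 4.45 in Tip110-/- arrays. Of the 28 members, 26 lay above the median row of the table, and 14 of these were lower without overlap. Among all genes above that row, 20.6% were lower and 26.6% higher without overlap, while 5.93% were lower and 5.47% higher at an unadjusted p under 0.05. A still brighter comparison was chosen after the values were seen. Of the 25 members with a mean of at least 7, 14 were lower without overlap and 2 were lower at an unadjusted p under 0.05 in limma. Among the 6310 other genes as bright, 24.9% were lower and 18.9% higher without overlap, and 7.4% were lower and 3.66% higher at that p. The median difference was -0.55 for these 25 members and -0.02 for the other bright genes. The share at the unadjusted threshold was thus near that of other bright genes, while the share without overlap was higher among the members; the difference in shares was not tested.

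The 1324 rows taken as exon controls of widely expressed genes had medians of 9.80 and 9.66 in wild-type and of 8.69 and 9.51 in Tip110-/-, a difference of -0.63. For the 28 members the array medians read 10.22 and 10.27 for wild-type against 9.39 and 10.21 for Tip110-/-. Both sets were lowest in the pooled Tip110-/- array. Arrays centred on the exon control rows, a setting added after the data were seen, gave a median member difference of 0.14. Over all genes the median was 0.78. Of the 28 members 11 were lower and 17 higher, beside 9.45% of all genes lower. In that setting 2 members were lower and 9 higher without overlap, in place of 15 and 0. Under quantile normalization, median centring and cyclic loess the member median was -0.49, -0.66 and -0.49, with 22, 24 and 22 genes lower. Over all genes the medians were -0.01, -0.02 and -0.02, with 52.2%, 52.6% and 54.4% lower. Without overlap, 16, 19 and 13 members were lower and 1, 0 and 2 higher in these settings. The shares of all genes without overlap were not computed for the rescaled arrays. The sign of the member median therefore depended on whether the exon controls were taken as the fixed point. In each of these scalings the member median lay below the median over all genes, and this gap was not tested. RNA collected per outgrowth amounted to 249 and 178 pg for wild-type against 55 and 144 pg for Tip110-/-. Genotype and RNA yield cannot be told apart here.

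Markers of the cell types in an outgrowth differed in the same comparison. Of 12 epiblast markers 12 had a lower mean in Tip110-/-, with a median difference of -3.78. Without overlap 10 were lower, and 10 were lower at an unadjusted p under 0.05 in limma. Over all genes 12.9% were lower and 39.9% higher without overlap, and 3.67% were lower and 8.99% higher at that p. The summed signal of the 12 epiblast markers on the log2 scale was 15.15 and 16.15 in wild-type against 11.89 and 11.23. All 11 dividing-cell markers measured were lower without overlap, with a median of -2.71 and sums of 13.86 and 14.34 against 11.98 and 10.75. All 12 trophoblast markers measured had a higher mean, as did 20984 of all 30142 genes. Without overlap 7 of the 12 were higher, while 5 overlapped, and 4 were higher at that p. The trophoblast markers had a median of 0.82 and sums of 18.81 and 18.21 against 18.92 and 19.94. Of 11 primitive endoderm markers 5 were lower and 6 higher, 0 at that p, with a median of 0.07 and sums of 13.18 and 12.20 against 11.59 and 12.30. In 9 of the 11 the groups overlapped. The wild-type arrays could differ widely from each other, as for Lamb1 at 10.05 and 4.43, so the median does not show an equal level. No marker is at 0, since arrays report a background level; Sox17, which defines primitive endoderm, lay between 3.45 and 3.64, below the array medians. Fewer cells of a type and less RNA per cell cannot be told apart in these samples, and the part of cell composition in the splicing factor differences was not tested.

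**Figure D1:**
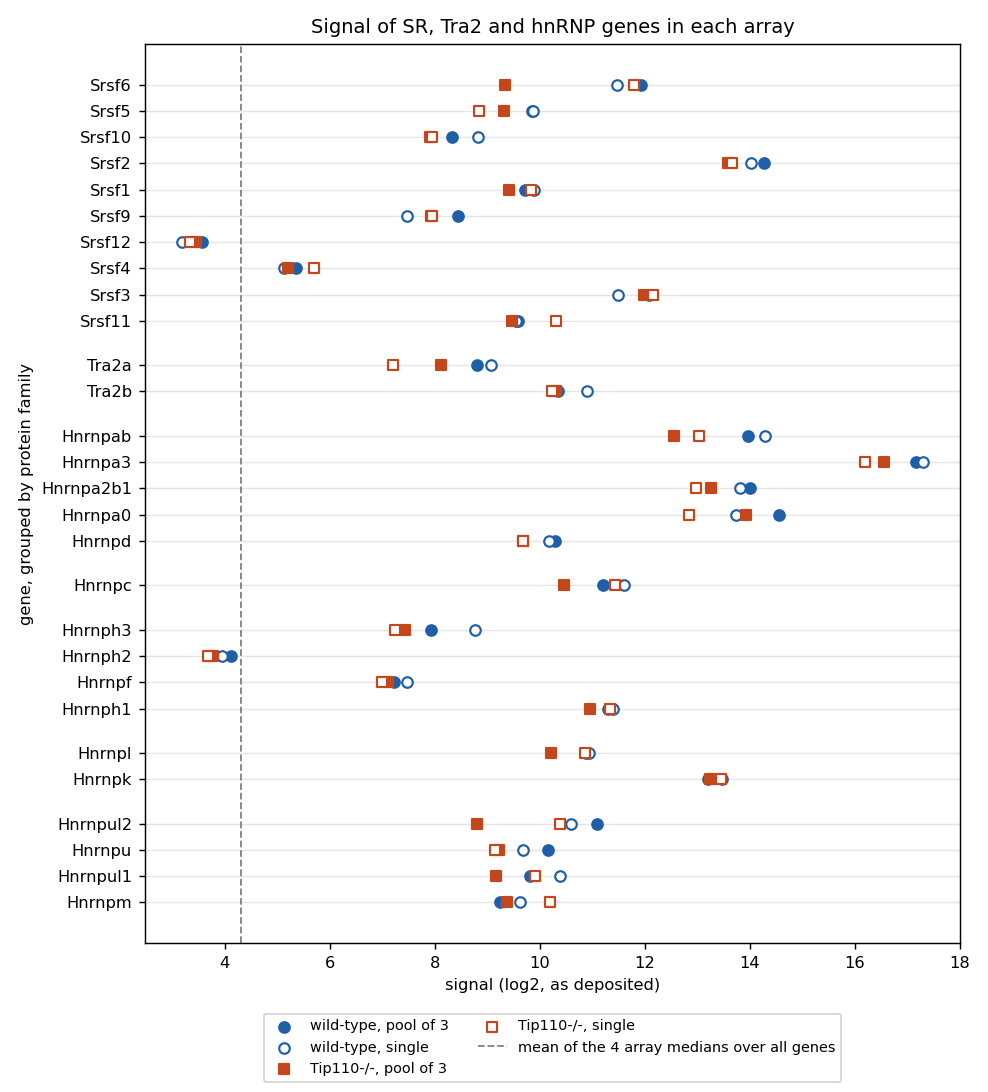
Deposited log2 signal (x axis) of each gene (y axis, grouped by protein family) in the wild-type arrays (circles) and Tip110-/- arrays (squares); filled symbols are pools of 3 outgrowths and open symbols single outgrowths. Squares lie to the left of both circles for 15 of 28 genes, and the dashed line is the mean of the 4 array medians over all genes.

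The target gene gives a limited check of the labels. Sart3 was at 4.94 and 5.98 in wild-type and at 4.28 and 4.54 in Tip110-/-, a difference of -1.05 ± 0.39 (SE, n = 2 per group; limma adjusted p = 0.386). Both Tip110-/- values were below both wild-type values. They lay near the medians over all genes of the same arrays, 4.45 and 4.32. Whether the probes lie in the part of the gene changed in the mutant allele is not stated. Without wild-type replicate 2 the difference was -0.53.

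Among the A, B and D hnRNPs all 5 genes had a lower mean in Tip110-/-, with a median difference of -0.79. Of the 5, 4 were lower without overlap, beside 12.9% of all genes and 24.9% of other genes with a mean of at least 7. The 4 include Hnrnpa3, whose row has an uncertain locus, as described below. The A, B and D proteins share a pair of RNA recognition motifs and a glycine-rich tail. Hnrnpab, which encodes the A/B protein also known as CBF-A, was at 13.95 and 14.29 in wild-type and at 12.56 and 13.03 in Tip110-/-. Its mean was 2.5-fold lower in Tip110-/-, the largest difference of the 28 genes: -1.32 ± 0.40 (SE; 95% interval -2.35 to -0.30; limma unadjusted p = 0.0208, adjusted p = 0.349). Its unadjusted p was 0.0913 without wild-type replicate 2 and 0.0806 without Tip110-/- replicate 1, and 0.232 on arrays centred on the exon controls. The difference itself stayed negative in those settings, at -1.16, -1.09 and -0.69.

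Hnrnpa3, a relative of hnRNP A1 that packages nascent transcripts, was at 17.15 and 17.30 in wild-type and at 16.55 and 16.19 in Tip110-/-. The difference was -0.85 ± 0.20 (SE; 95% interval -1.37 to -0.34), or 1.81-fold lower, with a limma unadjusted p of 0.00815 and an adjusted p of 0.334. The unadjusted p stayed under the threshold with each array left out, between 0.00914 and 0.0375, but was 0.6 with arrays centred on the exon controls, where the difference was -0.22. The locus of this row is uncertain. Its platform identifier carries chromosome 3, whereas RefSeq (GRCm38.p6) places Hnrnpa3 on chromosome 2; for the other 27 members the 2 sources gave the same chromosome. A further row, named for both Hnrnpa3 and the pseudogene Gm6793 and so outside the set, read 14.50 and 14.85 in wild-type against 13.55 and 13.23 in Tip110-/-, lower by -1.28 on average. The 2 rows can share transcripts and are not separate evidence.

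Hnrnpa2b1 encodes A2 and B1, which sort and carry mRNAs as well as act in splicing. It was at 14.01 and 13.80 in wild-type against 13.27 and 12.96 in Tip110-/-, with no overlap and a difference of -0.79 (limma adjusted p = 0.41). Hnrnpd encodes AUF1, which binds AU-rich elements and promotes mRNA decay. It read 10.28 and 10.17 against 9.67 and 9.69, a difference of -0.55 with no overlap (limma adjusted p = 0.584). Hnrnpa0, whose protein also binds AU-rich elements, was at 14.56 and 13.74 in wild-type and at 13.92 and 12.84 in Tip110-/-. Its groups overlapped, and the difference of -0.77 became -0.22 without Tip110-/- replicate 2 and -0.36 without wild-type replicate 1. Hnrnpa1, the best known member of the subfamily, has a row shared with Gm10052, Gm5803 and Gm5643 and was therefore not a member. That row read 13.99 and 14.25 in wild-type against 13.16 and 14.83 in Tip110-/-, with the single Tip110-/- outgrowth the highest of the 4. Hnrnpdl, a D-like protein whose row carries 2 spellings, was also outside the set and differed by -0.45 without overlap, while the row of Hnrnpr differed by -0.04.

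The sequences upstream of 3 genes of this subfamily and of Tra2a, which had the largest difference outside the hnRNPs, are shown. Hnrnpab and Tra2a had the largest differences of the set, but the other genes shown were not chosen by size. Hnrnpul2, at -1.25, and Hnrnpa3, at -0.85, are not shown, and Hnrnpd, at -0.55, lay near the member median of -0.49. RefSeq promoter windows (build GRCm38.p6) were found for 27 of the 28 members, and the 250 bases before the annotated start are printed 5′ to 3′ on the gene's strand, the first window being used where a gene had several. Capitals mark 5 motifs searched on both strands: CCAAT, the GC box GGGCGG, the E-box CACGTG, the ETS core CCGGAA and the TATA box TATAAA. The windows lie on the minus strand, at chr11:51606882-51607131 for Hnrnpab, chr6:51469895-51470144 for Hnrnpa2b1, chr5:99978939-99979188 for Hnrnpd and chr6:49264053-49264302 for Tra2a.
Hnrnpab: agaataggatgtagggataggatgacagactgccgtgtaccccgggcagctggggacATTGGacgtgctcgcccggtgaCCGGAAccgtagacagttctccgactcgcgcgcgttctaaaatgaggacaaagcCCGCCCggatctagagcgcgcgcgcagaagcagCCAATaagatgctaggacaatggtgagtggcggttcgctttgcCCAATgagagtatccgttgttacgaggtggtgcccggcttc
Hnrnpa2b1: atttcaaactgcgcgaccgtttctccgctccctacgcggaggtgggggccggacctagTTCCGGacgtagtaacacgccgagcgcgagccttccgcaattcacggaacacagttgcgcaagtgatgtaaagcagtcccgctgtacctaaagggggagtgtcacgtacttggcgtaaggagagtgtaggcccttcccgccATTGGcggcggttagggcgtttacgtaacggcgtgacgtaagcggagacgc
Hnrnpd: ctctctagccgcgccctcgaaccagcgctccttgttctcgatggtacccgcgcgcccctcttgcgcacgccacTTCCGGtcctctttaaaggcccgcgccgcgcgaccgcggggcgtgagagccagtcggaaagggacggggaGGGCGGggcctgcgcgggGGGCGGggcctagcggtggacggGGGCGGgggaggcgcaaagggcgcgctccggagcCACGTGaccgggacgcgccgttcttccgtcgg
Tra2a: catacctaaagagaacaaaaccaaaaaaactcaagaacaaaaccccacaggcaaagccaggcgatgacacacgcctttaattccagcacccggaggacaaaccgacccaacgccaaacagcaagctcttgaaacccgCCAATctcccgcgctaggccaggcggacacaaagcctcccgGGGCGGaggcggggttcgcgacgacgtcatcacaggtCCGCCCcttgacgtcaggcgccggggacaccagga

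The Hnrnpab window holds 3 CCAAT matches, 1 ETS core and 1 GC box, and none of the 4 windows holds the TATA box letters. Over all 38 windows of the members, some of which overlap, 78.9% held a GC box, 50% a CCAAT match, 36.8% an ETS core, 7.89% an E-box and 7.89% a TATA box. Over all 32851 windows in the table the shares were 32.7%, 33.8%, 12%, 6.02% and 12.4%. The members' windows were also richer in G and C, with a median of 66.6% against 52.4%; the part of base composition in these shares was not tested. A match of letters is not a site in use, and Hnrnpk, whose signal was level between genotypes, also has a CCAAT match.

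Tra2 proteins bind GAA-rich exonic enhancers next to SR proteins. Tra2a was at 8.80 and 9.07 in wild-type and at 8.12 and 7.21 in Tip110-/-, a 2.41-fold lower mean with no overlap. Its difference was -1.27 ± 0.55 (SE; 95% interval -2.68 to 0.14; limma adjusted p = 0.40), and the interval includes 0. Tra2b, the paralogue with the same binding preference, read 10.35 and 10.89 against 10.30 and 10.23, and differed by -0.35. Its groups did not overlap, but the gap between the nearest arrays was smaller than the gap between the wild-type arrays.

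**Figure D2:**
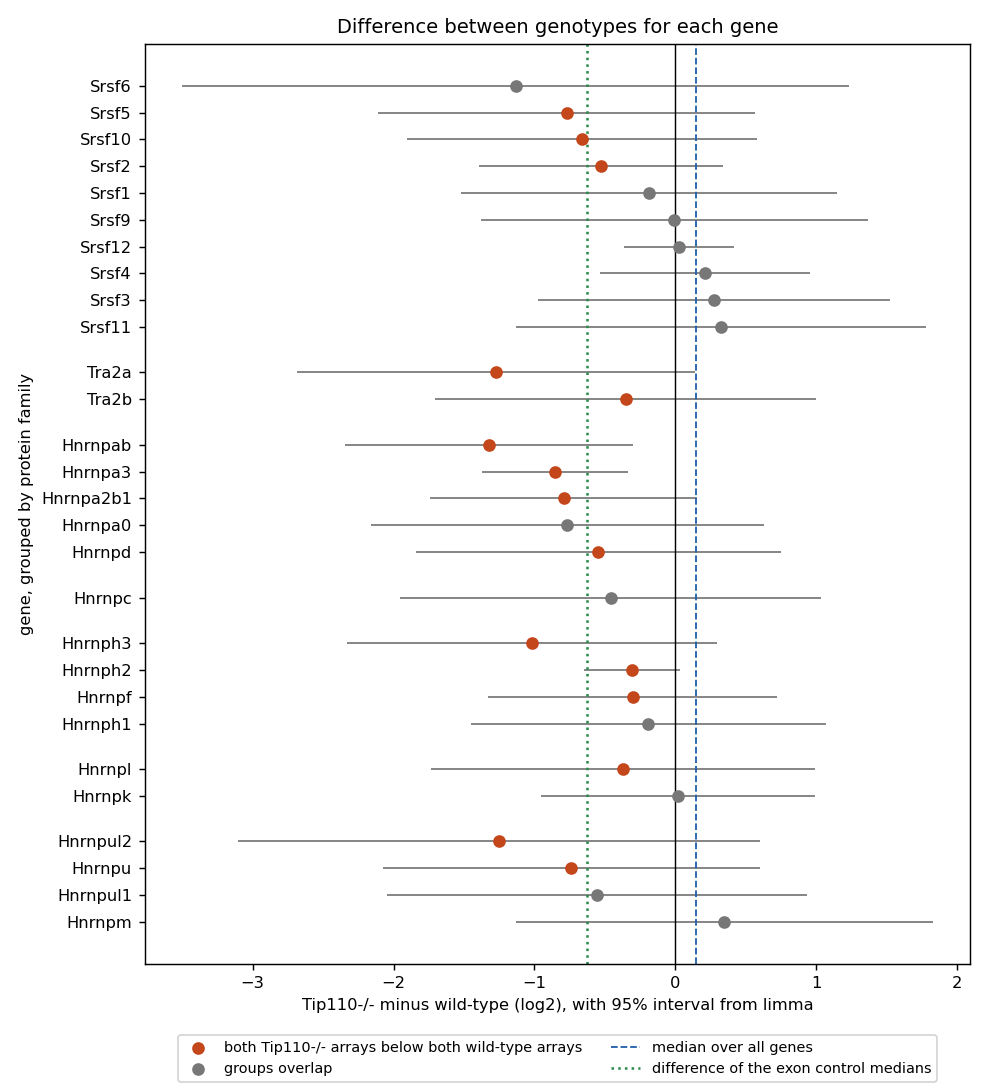
Difference between genotypes (x axis, Tip110-/- minus wild-type, log2) for each gene (y axis, grouped by family), with bars for limma's 95% interval, n = 2 arrays per genotype. Red points are genes whose groups do not overlap; the intervals of 2 genes, Hnrnpab and Hnrnpa3, lie wholly below 0. The dashed line is the median over all genes (0.15) and the dotted line the difference of the exon control medians (-0.63).

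The SR genes were split. Their median difference was -0.10, and 6 of 10 had a lower mean and 4 a higher one. Without overlap 3 were lower, beside 12.9% of all genes and 24.9% of other genes with a mean of at least 7. At an unadjusted p under 0.05 in limma 0 passed, beside 3.67% of all genes lower and 8.99% higher. Srsf2, or SC35, a classic enhancer-binding SR protein, was at 14.27 and 14.01 in wild-type and at 13.57 and 13.66 in Tip110-/-, a difference of -0.53 ± 0.34 (SE) with no overlap. On arrays centred on the exon controls it was 0.10. Srsf5, also called SRp40, differed by -0.77 and Srsf10, an SR protein that can repress splicing when dephosphorylated, by -0.66. Both were lower without overlap, at 9.84 and 9.87 against 9.32 and 8.85 for Srsf5 and at 8.33 and 8.83 against 7.90 and 7.93 for Srsf10.

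Srsf6, or SRp55, had the widest spread of all. It was at 11.92 and 11.48 in wild-type and at 9.33 in the pooled but 11.79 in the single Tip110-/- outgrowth. The difference of -1.13 ± 0.92 (SE) rested on the pooled array: without Tip110-/- replicate 1 it was 0.10 and without Tip110-/- replicate 2 it was -2.36. Srsf1, the founding SR protein also known as ASF/SF2, differed by -0.19 and Srsf9, or SRp30c, by -0.01, with overlapping groups in both. Their 95% intervals, -1.52 to 1.15 and -1.38 to 1.37, reach a 2-fold change in either direction.

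Srsf3, the smallest SR protein, which also serves in mRNA export, was at 12.08 and 11.49 in wild-type and at 11.97 and 12.15 in Tip110-/-. It differed by 0.28, with overlapping groups. Srsf11 read 9.59 and 9.54 in wild-type against 9.47 and 10.30 in Tip110-/-, and differed by 0.32. Srsf4, or SRp75, read 5.35 and 5.13 against 5.20 and 5.70, and differed by 0.21. Srsf12 was at 3.56 and 3.18 against 3.46 and 3.33, below the array medians over all genes, and differed by 0.03. In all 4 genes the groups overlapped, and in each the sign turned when 1 array was left out.

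The differences of the other hnRNPs ranged from -1.25 to 0.35. Among the F and H proteins, which bind runs of G, all 4 genes had a lower mean in Tip110-/-, with a median of -0.31. Hnrnph3 was at 7.93 and 8.77 in wild-type and at 7.43 and 7.24 in Tip110-/-, a difference of -1.02 ± 0.51 (SE; limma adjusted p = 0.427) that became -0.60 without wild-type replicate 2. Hnrnph2 differed by -0.31 and Hnrnpf by -0.30, both without overlap, and Hnrnph1 by -0.19 with overlap. For Hnrnph2 the difference was -0.52, -0.47 and -0.53 with quantile normalization, median centring and cyclic loess. The limma unadjusted p values were 0.0092, 0.013 and 0.0088. With arrays centred on the exon controls its difference turned positive, at 0.32 (limma unadjusted p = 0.615). Hnrnph2 lay between 3.67 and 4.11, below the array medians over all genes.

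Hnrnpul2, a relative of the scaffold protein hnRNP U, was at 11.08 and 10.60 in wild-type and at 8.80 and 10.38 in Tip110-/-. Its groups did not overlap, and the difference of -1.25 ± 0.72 (SE; limma adjusted p = 0.449) became -0.46 without the pooled Tip110-/- array. Hnrnpu itself, which binds nuclear RNA and chromatin, read 10.15 and 9.68 against 9.22 and 9.14, a difference of -0.74 with no overlap (limma adjusted p = 0.499). Hnrnpul1, a relative with a role in the response to DNA damage, differed by -0.55 with overlapping groups. Hnrnpm, which binds GU-rich RNA, was the highest of the 28 differences at 0.35. It was at 9.23 and 9.62 in wild-type and at 9.37 and 10.18 in Tip110-/-, overlapping, and differed by -0.06 without the single Tip110-/- array.

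Hnrnpk, which binds runs of C and also acts in transcription, was level between genotypes. It was at 13.19 and 13.46 in wild-type and at 13.23 and 13.46 in Tip110-/-, a difference of 0.02 with a 95% interval of -0.95 to 0.99. Hnrnpl, which binds CA-rich repeats, differed by -0.37, and its groups were apart by little, at 10.87 and 10.94 against 10.22 and 10.85. Hnrnpc, which binds runs of U and packages nascent transcripts, differed by -0.46, and its groups overlapped. The 16 hnRNP genes together had a median difference of -0.55, beside 0.15 over all genes. Of the 16, 10 were lower without overlap, beside 12.9% of all genes and 24.9% of other genes with a mean of at least 7. The contrast with the SR genes was not tested.

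**Figure D3:**
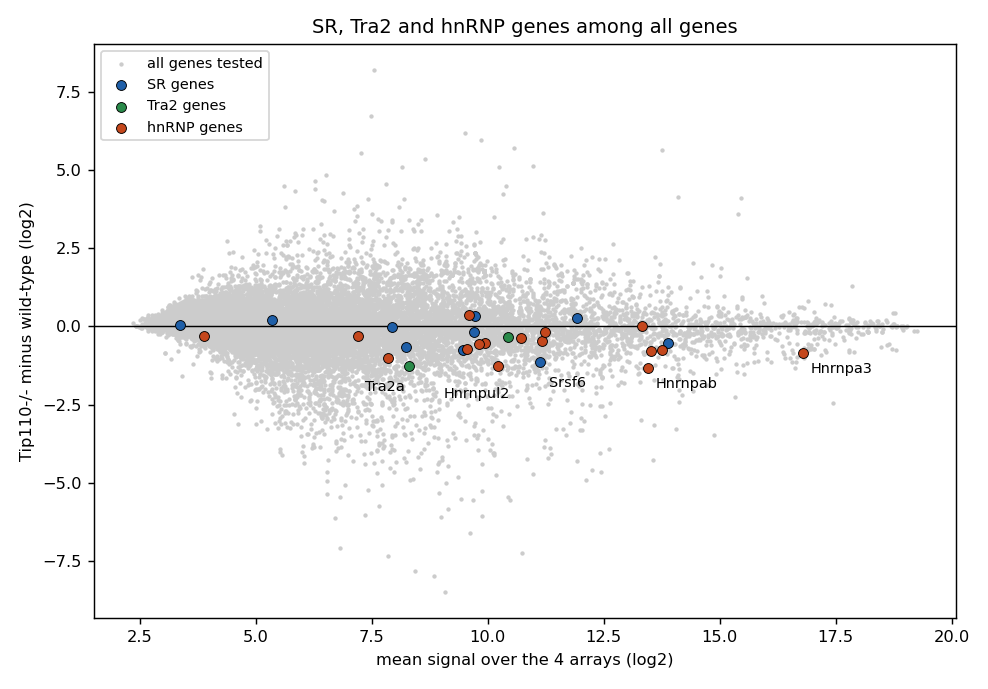
Mean signal over the 4 arrays (x axis, log2) against the difference between genotypes (y axis, Tip110-/- minus wild-type, log2) for all 30142 genes (grey) and the 28 SR, Tra2 and hnRNP genes (coloured). The members lie between -1.32 and 0.35, well inside the range of all genes of -8.48 to 8.19.

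The Tip110-/- arrays departed from wild-type by different amounts. In the pooled array 26 of 28 genes were below the wild-type mean, and the median over the 28 was -0.55. In the single outgrowth 19 were, and the median was -0.36. Over all genes the same medians were 0.16 in the pooled array and 0.11 in the single outgrowth. Srsf6 and Hnrnpul2 were low mainly in the pool, at -2.36 and -2.04 against 0.10 and -0.46 in the single outgrowth. Tra2a and Hnrnpa0 were lower in the single outgrowth, at -1.73 and -1.31 against -0.81 and -0.22 in the pool. Single and pooled arrays differed by over 1 log2 unit in 3 genes within Tip110-/- and in 0 within wild-type.

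**Figure D4:**
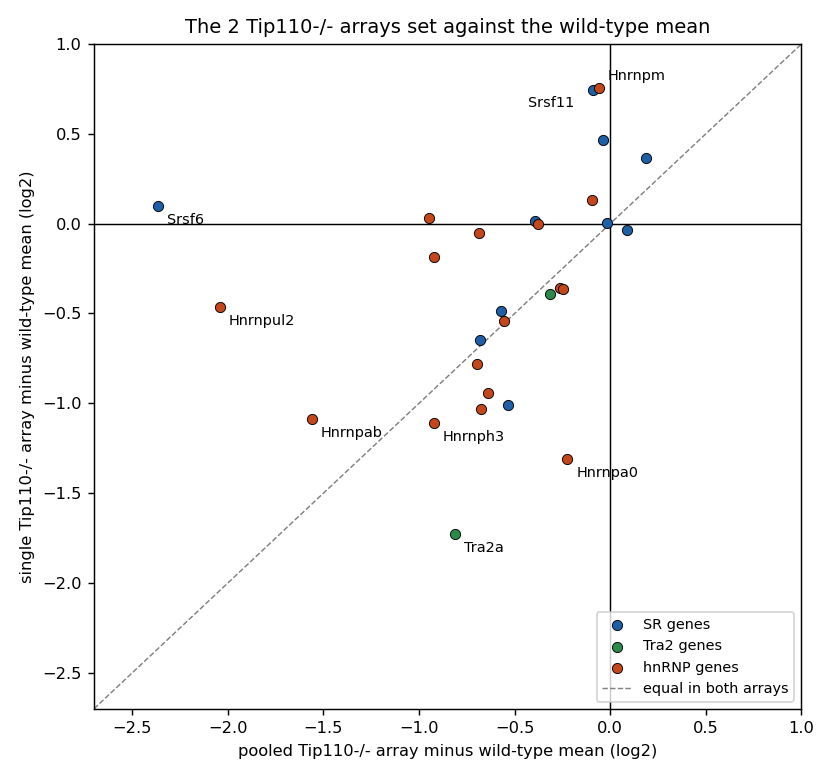
Each point is 1 gene, placed by the pooled Tip110-/- array (x axis) and the single Tip110-/- array (y axis), each minus the mean of the wild-type arrays (log2). Points near the dashed line differ alike in both arrays, as Hnrnpab roughly does at -1.56 and -1.09, while Srsf6 lies far from it.

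Genes that act with these proteins were read from 4 lists. Over all genes 3.67% were lower and 8.99% higher at an unadjusted p under 0.05 in limma. Of 10 kinase and import genes for SR proteins, 0 reached an unadjusted p under 0.05 in limma and the median difference was 0.12. Clk4, a kinase of SR proteins, read 5.65 and 6.21 in wild-type against 6.69 and 7.87 in Tip110-/-, and Srpk1, the cytoplasmic SR kinase, 11.29 and 11.13 against 10.07 and 10.76. These 2 are named after their values were seen. Of 15 SR-related proteins 0 passed, with a median of -0.03. Among 14 hnRNP-type genes under other symbols 1 was lower and 0 higher, with a median of -0.34: Pcbp4, which binds runs of C, at -1.18 ± 0.39 (SE; limma unadjusted p = 0.0284, adjusted p = 0.366). Among 17 other alternative splicing factors 1 was lower and 0 higher, with a median of -0.01. That gene was Mbnl1, which favours differentiated splicing patterns, at 7.86 and 7.36 in wild-type against 6.11 and 6.34 in Tip110-/- (limma unadjusted p = 0.019, adjusted p = 0.345).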

How the data were processed

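The authors deposited log2 signal for 72688 rows and 4 arrays of a whole-transcript platform. Transcriptome Analysis Console and Affymetrix Expression Console are named as tools, per the submitters' processing notes. Tool roles and versions, normalization and build were not given in the sources used here. The log base was inferred from the values. Per the labels 144 pg of RNA was used per array, while the design text says 100 pg. The number of arrays limits the precision.

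Rows were named through the platform annotation; 30604 rows with 1 symbol were updated by Entrez ID where the RefSeq gene table (GRCm38.p6) allowed, and the row with the highest mean was kept per gene. Genotypes were compared over all 30142 genes in R 4.3.3 with limma 3.58.1 (lmFit, eBayes with an intensity trend, two-sided, Benjamini-Hochberg, no filter), which was also tested on simulated data. Python 3.11.15 with pandas 2.3.3 and matplotlib 3.10.9 did the rest. Every member was named, with its difference, and with array values for those at an unadjusted p under 0.05, the 6 largest differences each way and the 4 highest means; further array values were added for context. Alternatives covered the scaling of arrays, a filter on dim rows, the variance prior, the row kept per gene, the replicate number as a term and each array left out. Members, lists and rules were chosen with earlier results of these data known.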

Additional observations from a re-analysis of the deposited data

Results flagged for a closer look

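Of 7 rows left out because they carry several symbols or a pseudogene name, 2 had both Tip110-/- arrays above both wild-type arrays, beside 39.9% of all genes, and 3 had both below, beside 12.9%. The row named Hnrnpll and Hnrpll, 2 spellings of 1 gene that regulates splicing in lymphocytes, read 7.73 and 7.57 for wild-type against 8.31 and 8.06 for Tip110-/-, a difference of 0.53. The row of the pseudogene Hnrnpa1l2-ps read 7.99 and 8.36 against 8.54 and 8.91, a difference of 0.545; near-identical copies can share probes. Its sister pseudogene Hnrnpa1l2-ps2 was lower without overlap, at 8.46 and 8.99 against 7.64 and 8.37, a difference of -0.72. These rows were outside the gene comparison and were not tested.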

How the results depend on the processing

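With 2 arrays per genotype, the call of 0 of 28 members past the adjusted threshold in limma held in every alternative run. Among the 15 members recomputed gene by gene, those the naming rule gave array values, the lowest adjusted p was 0.2405 (Srsf6 without Tip110-/- replicate 2). The number of members lower at an unadjusted p was 2 in the main fit. It became 3 with quantile normalization and with cyclic loess, where Hnrnph2 was added. It was 4 with arrays centred on their median, 10 without the intensity trend, 4 without moderation and 0 with arrays centred on the exon control rows. Over all genes, in either direction, 3817 passed that p in the main fit. In these settings the whole-table counts were 2727, 2728, 2736, 3138, 2988 and 2921, in the same order. They were not split by direction, and the movement of the member count against them was not tested. The member count also moved in some fits with 1 array left out. The centring on the exon control rows was added after the data were seen. It turned the member median to 0.14, beside 0.78 over all genes, and called 680 genes of the whole table. The cause was not tested. Counting Hnrnpdl and Hnrnpll as members, also an added setting, gave a median of -0.45.

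With the replicate number as a term (replicate block) the count was again 2. Deviations of same-numbered arrays correlated at r = -0.09 across genes, so the numbers were not taken to pair the samples. Of 223 recomputed differences of these 15 members and Sart3, 14 turned in sign. Hnrnpk was at -0.15 with median centring, and Srsf2 at 0.10 on the exon controls. Srsf12 was at -0.16, -0.14 and -0.16 with quantile normalization, median centring and cyclic loess. Outside these 15, Hnrnpc, Hnrnpd, Hnrnpf, Hnrnph1, Hnrnph2, Hnrnpl, Hnrnpul1, Srsf1, Srsf9 and Tra2b also turned positive on the exon controls. Hnrnpu, Srsf5 and Srsf10 stayed negative there. Srsf9 was positive with quantile normalization and cyclic loess as well, at 0.09 and 0.01. With 1 array left out the range was -0.12 to 0.15 for Hnrnpk, -0.061 to 0.76 for Hnrnpm, -0.092 to 0.74 for Srsf11, -0.16 to 0.21 for Srsf12, -0.020 to 0.57 for Srsf3, -0.04 to 0.46 for Srsf4 and -2.36 to 0.10 for Srsf6. Fits of 3 arrays assume that the lone array varies like the other group.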
